A study of Anas platyrhynchos and Gallus gallus and Anas rubripes with 21 samples.

Results

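Wood duck and harlequin duck were set against Pekin duck, black duck and lesser scaup, and the genes whose RNA levels in trigeminal ganglia did not overlap between the 2 sides were collected. Of 20451 genes in the table, 12204 had a mean of at least 1 RPKM (reads per kilobase of transcript, normalized to the total reads of the library) over these 5 ducks and were tested, and 3484 of them had no overlap: 1446 were higher in wood and harlequin duck and 2038 were lower. The sides were chosen by the measured level of *PIEZO2*, since wood and harlequin duck had the lowest *PIEZO2* levels among the 6 ducks sequenced and the other 3 the highest, and the genes were selected on the same values. Their levels are therefore a description, without a test.

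The trigeminal ganglion holds the cell bodies of the sensory neurons that serve the face, beak and bill. Its mechanoreceptor neurons detect touch and vibration through the ion channel Piezo2, and other neurons of the ganglion detect heat, cold and painful stimuli through channels of the TRP family. Nociceptors also release neuropeptides such as substance P and calcitonin gene-related peptide from their endings. Around the neurons lie Schwann cells, which make myelin, satellite glia, which wrap the cell bodies, and connective tissue made by fibroblasts.

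RNA was sequenced from whole ganglia of unmodified, untreated embryos, 3 birds in each of 7 species, so that 15 of the 21 birds belong to the 5 ducks compared. All were taken late in development, shortly before hatching, which falls on different embryonic days in different species. Wood duck embryos were at day 28 to 31 and harlequin duck embryos at day 28 to 29, while Pekin duck and lesser scaup embryos were at day 25 to 26 and black duck embryos at day 21 to 22, so that the lower side in *PIEZO2* is also the side with more days of incubation, and the 2 cannot be told apart. Ruddy duck (day 30 to 31) and chicken (day 19 to 21) were not used by the rule and are given beside the 5 ducks.

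The table gives 1 mean over the 3 birds for each species, so a spread between birds is not known here and the species means served as replicates, 2 on one side and 3 on the other. Each SD below is a spread between species. Pekin duck eggs came from a commercial farm and the eggs of the other 4 ducks from wildlife centers, and Pekin and black duck belong to the genus *Anas*. The duck reference genome is that of *Anas platyrhynchos*, the species of the Pekin duck.

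The 5 ducks were similar in their profiles. Across the 12204 genes, the correlation of log2(RPKM + 1) between pairs of ducks lay between 0.940 and 0.983, where genes are not independent replicates. It was highest between Pekin and black duck and lowest between wood and harlequin duck, the pair that makes up the low side. The ducks also differed in W-linked transcripts within each side. *CHD1W*, a gene of the female-specific W chromosome that was looked at after the values were known, had 0.428 RPKM in harlequin duck and 0.543 RPKM in black duck, and between 3.71 and 4.33 RPKM in wood duck, Pekin duck and lesser scaup. Each side thus held 1 duck with few W-linked transcripts. Of 574 tested genes on the Z chromosome, 6.79% were higher in wood and harlequin duck and 9.06% were lower, compared with 12.3% and 16.6% of the genes placed on other chromosomes.

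*PIEZO2*, which encodes the touch channel that defined the sides, had 81.5 RPKM in wood duck, and harlequin duck had 68.3 RPKM. It had 102 RPKM in Pekin duck, 99.7 RPKM in black duck and 101 RPKM in lesser scaup. The 3 high ducks were nearly equal (101 ± 1.07 RPKM, SD, n = 3 species), and the low side (74.9 ± 9.39 RPKM, SD, n = 2 species) was 1.35-fold below it. The gap between the nearest values of the sides, wood duck and black duck, was 0.29 on the log2(RPKM + 1) scale. Ruddy duck lay in between with 92.4 RPKM, and chicken was below all ducks with 48.2 RPKM.

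Among all genes tested, 11.8% were higher in wood and harlequin duck without overlap and 16.7% were lower, together 28.5%. These shares are the background for every gene list below, except for counts with 1 duck left out or with another pair of ducks. Most of the separations were narrow. The median gap was 0.13 on the log2 scale in both directions, and 22.3% of the higher and 23.9% of the lower genes had a gap under 0.05. A gap of at least 0.5 was found for 116 higher and 120 lower genes, and one of at least 1 for 20 and 19 genes. At the threshold itself stood *TRA2A*, a splicing regulator, with 77.2 RPKM (wood duck) and 80.2 RPKM (harlequin duck) against at most 77.2 RPKM, in lesser scaup. *GALNT2*, a glycosyltransferase, stood just outside with 25.2 and 26.9 RPKM against at most 25.2 RPKM, in black duck. On the lower side, *CRK*, an adaptor protein, was just inside with at most 43.2 RPKM in wood and harlequin duck and at least 43.2 RPKM in the other 3, and *HIP1*, an endocytic protein, was just outside.

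The direction of the genes depended on their level. Lower genes prevailed among genes with a mean of 1 to 5 RPKM (18.3% lower, 10.2% higher) and 5 to 20 RPKM (18.8% and 11.0%). The shares were nearly equal at 20 to 100 RPKM (13.6% lower, 13.4% higher), and above 100 RPKM more genes were higher (17.6%) than lower (10.4%). Genes found in the duck annotation alone were lower in 21.9% and higher in 11.5% of cases, against 16.2% and 11.8% of genes in both annotations.

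To place the number of separated genes, each of the 10 pairs that 5 ducks allow was set against the other 3 in the same way. Any gene without ties separates exactly 2 of these 10 pairs, so the counts are shares of a fixed total. Pekin and black duck separated from the others at 3546 genes (29.1%), and wood and harlequin duck came next with 3484. Wood duck with lesser scaup (3121 genes) and harlequin duck with lesser scaup (2947 genes) followed, and the other 6 pairs separated at 1686 to 2205 genes. Wider gaps gave partly another order. A gap of at least 0.5 was found for 243 genes with Pekin and black duck, for 236 with wood and harlequin duck, for 179 with wood duck and scaup and for 167 with harlequin duck and scaup. A gap of at least 1 was found for 51 genes with harlequin and black duck, for 48 with Pekin and black duck and for 39 with wood and harlequin duck. The division by *PIEZO2* was therefore second of 10 for any gap and for gaps of at least 0.5, and behind both of these pairs for gaps of at least 1.

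**Figure D1:**
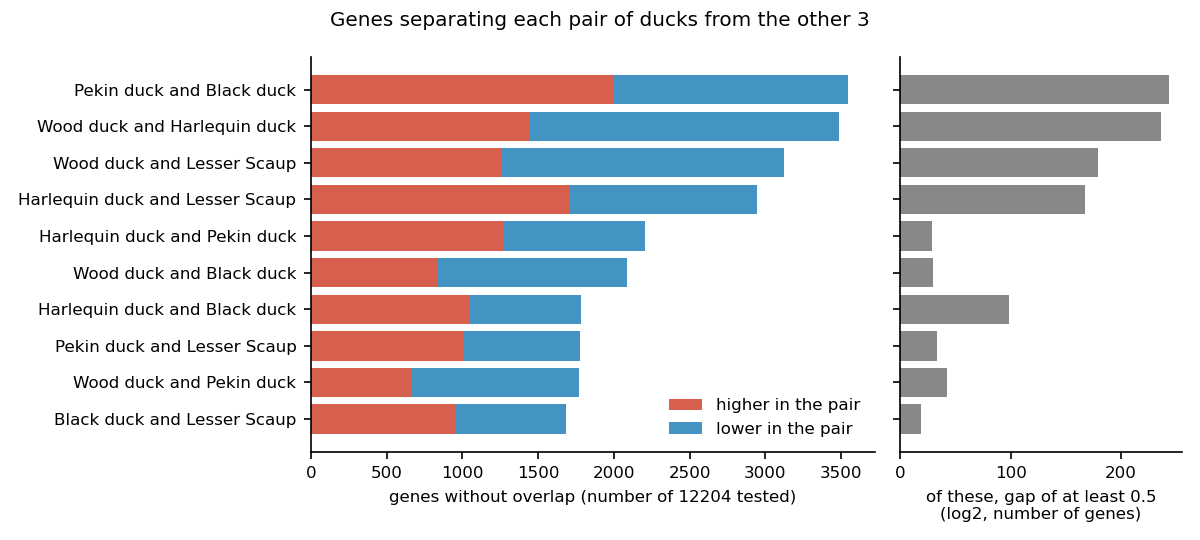
The bars at the left give, for each of the 10 pairs of ducks, the number of genes of 12204 at which both ducks of the pair were above (red) or below (blue) all other 3 ducks, and the bars at the right give how many of these had a gap of at least 0.5 on the log2(RPKM + 1) scale. Wood and harlequin duck, with 1446 genes higher and 2038 lower, stand second after Pekin and black duck, with 1999 higher and 1547 lower.

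A fit across all genes with limma, with the species means as replicates, called 1 gene of 12204 (0.00819%) at a Benjamini-Hochberg adjusted p under 0.05, and 1297 genes (10.6%) had an unadjusted p under 0.05. Because the sides were set by *PIEZO2* and the other genes separated in the same contrast, nothing is read from this count for single genes. The gene called was *CALML5*, a calmodulin-like gene of the duck annotation that was chosen here after its values were seen. It was listed at 62.4 RPKM in wood duck, 33.6 RPKM in harlequin duck and 59.0 RPKM in ruddy duck, and at 0 in Pekin duck, black duck and lesser scaup. *CALML3* of the chicken annotation had the same pattern (37.8 RPKM in wood duck, 11.0 RPKM in harlequin duck and 0 in the 3 others), and since the gene lists were joined by symbol, both entries may count the same reads.

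Genes of thermoreceptors and nociceptors had the largest share of higher members among the 34 lists with at least 10 genes tested. Of 36 genes listed, 28 passed the filter on low values, and 14 of these (50.0%, against 11.8% of all genes) were higher in wood and harlequin duck, while none was lower. The 14 are not independent of the choice of sides. For *TAC1*, *TRPA1* and *SCN9A* among them, the study had already reported a negative correlation with *PIEZO2* over the same species means, together with those of ruddy duck and chicken. The median difference between the sides over the 28 genes was 0.56 on the log2(RPKM + 1) scale, compared with -0.03 over all genes tested, and 23 of the 28 differences were above 0. Summed over the list, levels were 1775 RPKM (wood duck) and 1408 RPKM (harlequin duck), and 876 to 989 RPKM in the 3 other ducks.

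The widest gap was that of *KCNK18*, which encodes TRESK, a background potassium channel that dampens the excitability of sensory neurons. It had 46.1 RPKM (wood duck) and 33.8 RPKM (harlequin duck) against 15.2 RPKM in Pekin duck, 15.4 RPKM in black duck and 14.2 RPKM in lesser scaup, a 2.68-fold difference of the means. The SD among the 3 ducks of the high *PIEZO2* side was 0.645 RPKM. Ruddy duck (3.76 RPKM) and chicken (9.99 RPKM) were lower still. Unless species are named, paired values below stand for wood and harlequin duck in that order, and triple values for Pekin duck, black duck and lesser scaup.

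*TRPV1*, the receptor for noxious heat and for capsaicin in mammals, had 55.7 RPKM (wood duck) and 48.8 RPKM (harlequin duck), compared with 26.8, 22.4 and 21.5 RPKM in Pekin duck, black duck and scaup (2.22-fold). *TRPM8*, the cold and menthol receptor, had 73.3 and 51.9 RPKM against 31.1, 20.7 and 27.4 RPKM (2.37-fold). *TRPA1*, a receptor for chemical irritants, had 99.2 and 49.3 RPKM against 29.1, 36.7 and 29.9 RPKM (2.33-fold). The warmth-sensitive channel *TRPV3* was lower in level, with 7.73 and 9.15 RPKM against 1.21, 2.17 and 5.27 RPKM. Wood duck was the highest of the 5 ducks in *TRPV1*, *TRPM8* and *TRPA1*, and harlequin duck was the highest in *TRPV3*. Wood duck was the highest in 10 of the 14 separated genes.

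*TRPV2* and *TRPM3*, the other members of the family on the list that passed the filter, overlapped between the sides. *TRPV2* had 30.4 and 37.6 RPKM in wood and harlequin duck, within reach of the 27.2 to 34.1 RPKM in the others. *TRPM3* had 9.53 and 6.22 RPKM against 6.18 to 8.11 RPKM. *TRPV4* and *TRPC5* were below 1 RPKM on average. The higher levels in wood and harlequin duck were thus found for 4 of the 6 TRP channels of the list that were tested.

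Among the transmitters of these neurons, *TAC1*, the precursor of substance P, had 401 RPKM (wood duck) and 223 RPKM (harlequin duck), and 106, 125 and 130 RPKM in Pekin duck, black duck and scaup (2.59-fold). *CALCB*, which encodes calcitonin gene-related peptide, had 28.0 and 47.5 RPKM against 22.7, 13.9 and 22.2 RPKM. *ADCYAP1*, the precursor of the peptide PACAP, had 127 and 71.4 RPKM against 31.9, 55.3 and 57.2 RPKM. *SCG2*, a protein of secretory granules that is cut into peptides, had 287 and 331 RPKM against 191 to 211 RPKM. These 4 genes and *CRH* were the separated members of the list of neuropeptides, of which 14 were tested, 5 (35.7%) were higher and none was lower.

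*PRDM12*, a transcription factor required for nociceptors in mammals, had 60.8 RPKM (wood duck) and 42.3 RPKM (harlequin duck), whereas the 3 other ducks lay between 27.5 and 29.1 RPKM (1.83-fold). *GFRA3*, the receptor for artemin, had 137 and 115 RPKM against 103, 88.2 and 71.5 RPKM. *SCN9A*, a sodium channel of nociceptors that was found in the chicken annotation alone, had 67.4 and 57.6 RPKM against 37.3 to 50.1 RPKM. The μ-opioid receptor *OPRM1* was separated by a gap of only 0.03 on the log2 scale, with harlequin duck at 7.24 RPKM next to scaup at 7.05 RPKM.

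Other nociceptor genes did not separate the sides. *SCN11A*, a sodium channel of nociceptors and the highest of the overlapping genes, had 140 RPKM (wood duck) and 58.5 RPKM (harlequin duck), but 113 RPKM in scaup. *RUNX1*, a transcription factor of nociceptors, had 9.21 RPKM (wood duck) and 4.62 RPKM (harlequin duck), the latter level with Pekin duck at 4.60 RPKM. The ATP receptor *P2RX3* had 6.10 RPKM in wood duck but 2.73 RPKM in harlequin duck, the lowest of the 5 ducks. *CHRNB3*, a nicotinic receptor subunit, had 37.1 and 55.4 RPKM within a range of 29.2 to 71.9 RPKM in the others.

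**Figure D2:**
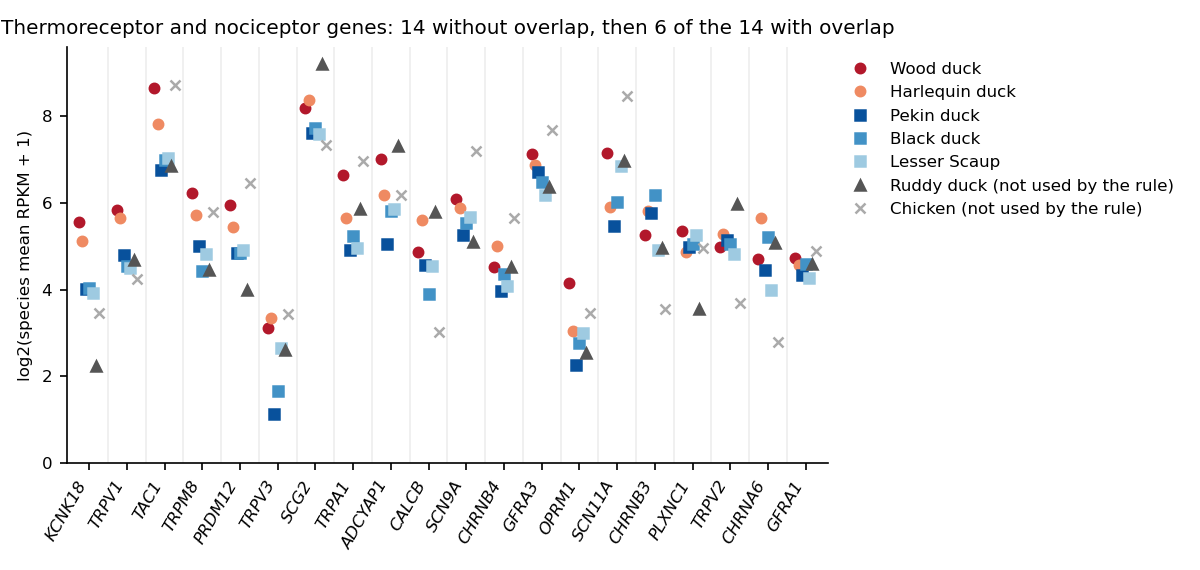
Each point is the mean of 3 birds of 1 species on the log2(RPKM + 1) scale, with wood and harlequin duck as circles, Pekin duck, black duck and lesser scaup as squares, and ruddy duck and chicken in gray. In the 14 genes at the left, both circles lie above all squares, from *KCNK18* with 46.1 and 33.8 RPKM against at most 15.4 RPKM to *OPRM1*, where the gap was 0.03; in the 6 at the right, they overlap.

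With the other 9 pairs of ducks, the same list gave 2 to 8 separated genes of 28, with at most 5 higher in the pair and at most 7 lower. Over all 12204 genes these pairs separated at 1686 to 3546 genes, with 660 to 1999 higher and 728 to 1860 lower. Most of them thus separated fewer genes in general than wood and harlequin duck (3484 genes). When wood duck was left out, 17 of the 28 genes were higher in harlequin duck than in the other 3, compared with 4084 of all 12204 genes. When harlequin duck was left out, 22 were higher in wood duck, compared with 3229 of all genes. Since the tissue was sequenced whole, more nociceptor neurons and more RNA per neuron cannot be told apart. The 18 tested pan-neuronal genes did not separate together, with 4 higher and 3 lower, and their summed levels overlapped (6636 and 5915 RPKM in wood and harlequin duck, 5434 to 6485 RPKM in the others). With each gene weighted alike, the 2 ducks went apart. The geometric mean of 15 of these genes, relative to the 5 ducks, was highest in wood duck (1.12) and lowest in harlequin duck (0.868). It was 0.955 to 1.05 in the others. After division by this factor, 17 of the 28 thermoreceptor and nociceptor genes were higher, compared with 1290 of all 12204 genes.

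Ruddy duck and chicken, which the rule did not use but the study's correlations did, did not take a common place in this list. Among the 14 genes, ruddy duck was nearer to wood and harlequin duck than to the others in 6, among them *SCG2* (580 RPKM) and *ADCYAP1* (157 RPKM). It was as low as the high *PIEZO2* ducks in *TRPV1* (24.7 RPKM), *TRPM8* (20.9 RPKM) and *TAC1* (114 RPKM). Over all tested genes with a difference in the same direction, the share nearer to wood and harlequin duck was 41.6% for ruddy duck and 36.3% for chicken. Chicken, with the lowest *PIEZO2* level, was nearer to wood and harlequin duck in 10 of the 14, with 420 RPKM of *TAC1*, 124 RPKM of *TRPA1* and 86.7 RPKM of *PRDM12*, but had 17.9 RPKM of *TRPV1*, less than any duck.

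Mechanoreceptor genes showed a weaker and more mixed pattern. Of 28 genes on that list, 26 were tested, 6 (23.1%, against 16.7% of all genes) were lower in wood and harlequin duck and 2 were higher. The median difference was -0.21 on the log2 scale, and 19 of the 26 differences were below 0. The pair that separated most genes of this list was Pekin and black duck, with 9 higher and 2 lower (1999 and 1547 of all genes). When wood duck was left out, harlequin duck alone was below the 3 others in 17 of the 26 genes, compared with 3909 of all 12204 genes. When harlequin duck was left out, wood duck was below them in 8 (4971 of all genes) and above them in 9 (3229 of all genes). Over the whole list, the lower levels were thus mostly those of harlequin duck. Among the 6 separated lower genes, wood duck was the lowest in 3. Harlequin duck also had the lowest pan-neuronal factor (0.868), and whether this is linked to its lower levels was not tested. After division by this factor 7 of the 26 genes were lower, compared with 1483 of all genes.

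Of the 6 lower genes, 4 encode proteins of the axonal membrane. *CNTNAP1*, which encodes the paranodal protein Caspr, had 25.8 RPKM (wood duck) and 20.2 RPKM (harlequin duck) against 41.1, 39.5 and 34.6 RPKM in Pekin duck, black duck and scaup, a 1.67-fold difference of the means. *CNTNAP2*, its juxtaparanodal relative, had 66.9 and 73.9 RPKM against 98.6, 107 and 89.8 RPKM (1.40-fold). The sodium channel *SCN1A* had 45.9 and 44.7 RPKM against 69.9, 64.3 and 60.4 RPKM (1.43-fold). The fast potassium channel *KCNC1* had 11.1 and 11.5 RPKM against 15.6, 18.1 and 13.7 RPKM. Wood and harlequin duck were nearly equal in *SCN1A* and *KCNC1*, and none of these 4 differences reached 2-fold.

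The remaining lower members were *S100B*, a calcium-binding protein of mechanoreceptors and glia, with 116 and 92.2 RPKM against 220, 129 and 173 RPKM, and the nuclear receptor *ESRRG*, with 5.08 and 5.31 RPKM against 5.60 to 6.87 RPKM. For *S100B*, the study had already reported a positive correlation with *PIEZO2* over species means that include these ducks. The 2 members that were higher were *ETV1*, a transcription factor of proprioceptors and some mechanoreceptors, and *RET*, the receptor kinase of the GDNF family. *ETV1* had 24.1 RPKM in both wood and harlequin duck and 15.1, 14.8 and 14.8 RPKM in the others (1.62-fold), the widest gap of this list. *RET* had 163 and 159 RPKM against 155, 132 and 120 RPKM.

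The best-known mechanoreceptor genes overlapped. For *NTRK2*, *MAF* and *NEFH*, the study had reported positive correlations with *PIEZO2* over species means that also include ruddy duck and chicken. Chicken, which is not part of the comparison here, had 21.1, 2.62 and 288 RPKM of these genes, less than any of the 5 ducks. *NTRK2*, the receptor for BDNF, had 41.3 and 43.7 RPKM in wood and harlequin duck, while scaup had 42.5 RPKM and black duck 58.8 RPKM. The transcription factor *MAF* had 19.8 and 18.3 RPKM against 17.8 to 19.3 RPKM. *NEFH*, the heavy neurofilament of large fibers, had 599 RPKM in wood duck, above the 537 RPKM of scaup, and 330 RPKM in harlequin duck, the lowest of the 5. *PVALB*, which encodes parvalbumin, had 254 RPKM (wood duck) and 90.8 RPKM (harlequin duck) against 128 to 284 RPKM. Harlequin duck was the lowest of the 5 ducks in both *NEFH* and *PVALB*, and wood duck lay among the high *PIEZO2* ducks.

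**Figure D3:**
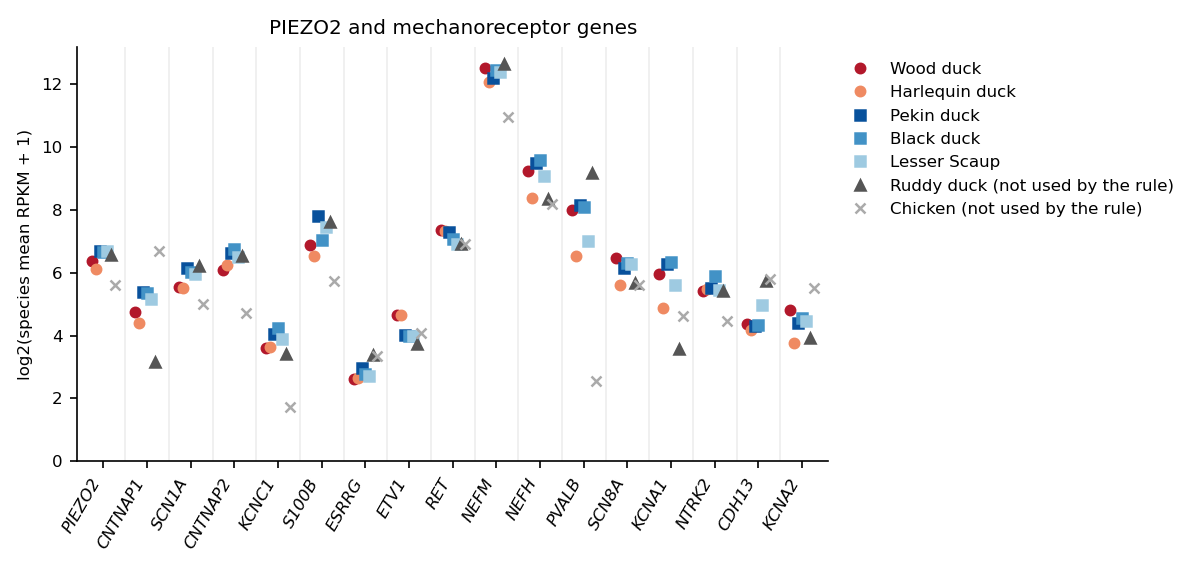
The levels of *PIEZO2* and of 16 mechanoreceptor genes are plotted as log2(RPKM + 1) of the species means, with symbols for the species as defined in the legend. Circles (wood and harlequin duck) lie below all squares from *PIEZO2* to *ESRRG* and above them in *ETV1* and *RET*, and both overlap in the other 8 genes, such as *NEFH* with 599 and 330 RPKM against 537 to 769 RPKM.

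Of 24 tested candidates for mechanotransduction, a list that includes *PIEZO2*, 3 were lower and 1 was higher. *KCNK1*, a background potassium channel, had 33.6 and 20.8 RPKM against 63.8, 56.6 and 43.6 RPKM (2.01-fold). *TMEM150C*, also known as Tentonin 3, had 1.92 and 1.90 RPKM against 2.10 to 3.10 RPKM. *STOM*, which encodes the membrane protein stomatin, was higher with 76.9 and 100 RPKM against 29.3, 18.5 and 42.4 RPKM (2.95-fold), and *PIEZO1* was below the filter.

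Other ion channels went both ways. Of 55 potassium channel genes, 10 were higher and 8 were lower, and of 13 calcium channel genes, 2 were higher and 1 was lower. *KCNIP4*, an accessory subunit of A-type potassium channels, had 46.3 and 30.1 RPKM against 16.3, 20.6 and 15.1 RPKM. *KCNS1*, a silent subunit that modifies Kv2 channels, had 0.550 and 0.267 RPKM against 4.06, 2.82 and 4.63 RPKM. Of 14 genes of sodium channels and their modulators, 4 (28.6%, against 16.7% of all genes) were lower and *SCN9A* alone was higher. *FGF13*, a modulator and not a channel, was among the lower genes, with 115 and 132 RPKM against 150 to 159 RPKM. Besides *SCN1A*, the lower genes included the subunit *SCN4B*, with 25.0 and 26.2 RPKM against 55.4, 32.8 and 32.8 RPKM.

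Receptors for transmitters also went both ways, with 9 of 58 higher and 10 lower. *CHRNA3*, a nicotinic receptor subunit that forms channels with *CHRNB4*, had 27.8 RPKM (wood duck) and 53.8 RPKM (harlequin duck) against 9.66, 11.8 and 13.2 RPKM (3.54-fold), and *CHRNB4* itself had 22.1 and 31.2 RPKM against 14.8 to 19.5 RPKM. The cannabinoid receptor *CNR1* had 49.0 and 48.4 RPKM against 16.8, 26.1 and 26.8 RPKM, and the serotonin receptor *HTR1E* had 25.4 and 31.0 RPKM against 10.2 to 13.4 RPKM. In the opposite direction, *GABRG1*, a subunit of GABA-A receptors, had 7.36 and 5.77 RPKM against 34.7, 29.3 and 38.9 RPKM, a 5.22-fold difference. Ruddy duck (8.26 RPKM) and chicken (2.43 RPKM) had low levels of *GABRG1* as well.

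Of 21 tested genes for neurotrophic factors and their receptors, 5 were higher and 4 were lower. *GFRAL*, the receptor for the stress cytokine GDF15, had 18.5 and 14.4 RPKM against 9.07, 6.37 and 2.02 RPKM. *BDNF*, the ligand of the receptor encoded by *NTRK2*, had 4.88 and 3.44 RPKM against 1.97, 1.92 and 2.33 RPKM (2.00-fold). *SORT1*, a sorting receptor for neurotrophins, was lower with 11.1 and 13.9 RPKM against 17.6 to 19.6 RPKM. Of 37 transcription factors of sensory neurons, 2 were higher, *ETV1* and *PRDM12*, and 4 were lower, among them *MAFA*, with 7.38 and 5.50 RPKM against 14.4, 9.99 and 9.12 RPKM.

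Fibroblast and matrix genes had the largest share of lower members among the same 34 lists. All 29 were tested, 13 (44.8%, against 16.7% of all genes) were lower in wood and harlequin duck and 1, *THBS2*, was higher, with a median difference of -0.54 on the log2 scale. *LUM*, the matrix proteoglycan lumican, had 119 and 143 RPKM against 293, 358 and 312 RPKM (2.46-fold). *POSTN*, which encodes periostin, had 3.27 and 6.88 RPKM against 18.4, 33.8 and 14.6 RPKM (4.39-fold). *PDGFRB*, a receptor of pericytes and fibroblasts, had 4.01 and 4.29 RPKM against 11.5, 8.59 and 8.31 RPKM (2.28-fold). Both low ducks were well below the others in these 3 genes.

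The summed level of the list was 1372 RPKM (wood duck) and 2178 RPKM (harlequin duck), compared with 2541 to 2792 RPKM in the other 3. Some abundant collagens and decorin separated wood duck only, whereas *COL6A2* separated both ducks, with 38.7 and 84.0 RPKM against 113 to 147 RPKM. *COL1A2* had 81.5 RPKM in wood duck but 232 RPKM in harlequin duck, within the 205 to 269 RPKM of the others, and *DCN*, which encodes decorin, had 170 and 422 RPKM against 369 to 440 RPKM. When harlequin duck was left out, 25 of the 29 genes were below the 3 other ducks, compared with 4971 of all 12204 genes. When wood duck was left out, 14 were below (3909 of all genes) and 7 above (4084 of all genes). Of 32 collagen genes tested, 12 (37.5%) were lower and 2 were higher. The 2 lists share members, so lower genes such as *COL5A2* and *COL6A3* are counted in both. *COL6A6*, a chain of collagen VI, had 1.18 and 0.383 RPKM against 18.6, 13.1 and 9.24 RPKM, and ruddy duck also was low with 2.25 RPKM.

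The separated fibroblast and collagen genes thus mostly had the same direction as *PIEZO2* and the opposite one to the nociceptor genes, and the part of connective tissue in the other differences was not tested. The remaining cell types differed less than fibroblast genes, but some as much as mechanoreceptor genes (23.1% lower, median difference -0.21). Of 18 myelin genes, 4 (22.2%) were lower and *PMP2* was higher, with 16 differences below 0 and a median of -0.30. Of 16 endothelial genes, 4 (25.0%) were lower and 2 higher (median -0.28). Of 19 genes of satellite and immature glia, 4 (21.1%) were lower and 1 was higher (median -0.21). These include *S100B* (lower) and *GFRA3* (higher), already counted in lists above. Of 13 muscle genes, 2 were lower and none was higher. The summed muscle level was high in 1 duck of each side, harlequin duck (98.4 RPKM) and black duck (258 RPKM), and 16.0 to 22.8 RPKM in the other 3.

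Genes of cholesterol synthesis were lower in 9 of 24 cases (37.5%) and higher in 2. *SQLE*, which encodes squalene epoxidase, had 118 and 141 RPKM against 238, 194 and 177 RPKM (1.56-fold), and *DHCR7*, which makes the last step to cholesterol, had 18.7 and 17.1 RPKM against 26.3, 28.3 and 24.5 RPKM (1.47-fold). The most abundant members, *HMGCS1* and *MSMO1*, were low in wood duck (295 and 111 RPKM) and high in harlequin duck (547 and 247 RPKM). Without harlequin duck 20 of the 24 genes were lower in wood duck, compared with 4971 of all 12204 genes. Without wood duck 9 were lower and 8 higher in harlequin duck, near the shares over all genes (3909 and 4084).

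Genes of the respiratory chain were higher in 17 of 63 cases (27.0%, against 11.8% of all genes) and lower in 5, 2 of which, *ATP5B* and *ATP5F1B*, are an older and a newer symbol of 1 gene. Most of these genes had means above 100 RPKM, a level at which 17.6% of all genes were higher and 10.4% were lower. *COX6A1*, a subunit of cytochrome c oxidase, had 328 and 260 RPKM against 172, 193 and 172 RPKM (1.64-fold). Here the 2 low *PIEZO2* ducks went apart. Without wood duck 47 genes were higher in harlequin duck, compared with 4084 of all 12204 genes. Without harlequin duck 18 were higher and 27 lower in wood duck, near the shares over all genes (3229 and 4971). Harlequin and Pekin duck separated more of these genes (24, against 2205 of all genes) than wood and harlequin duck did (22, against 3484).

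**Figure D4:**
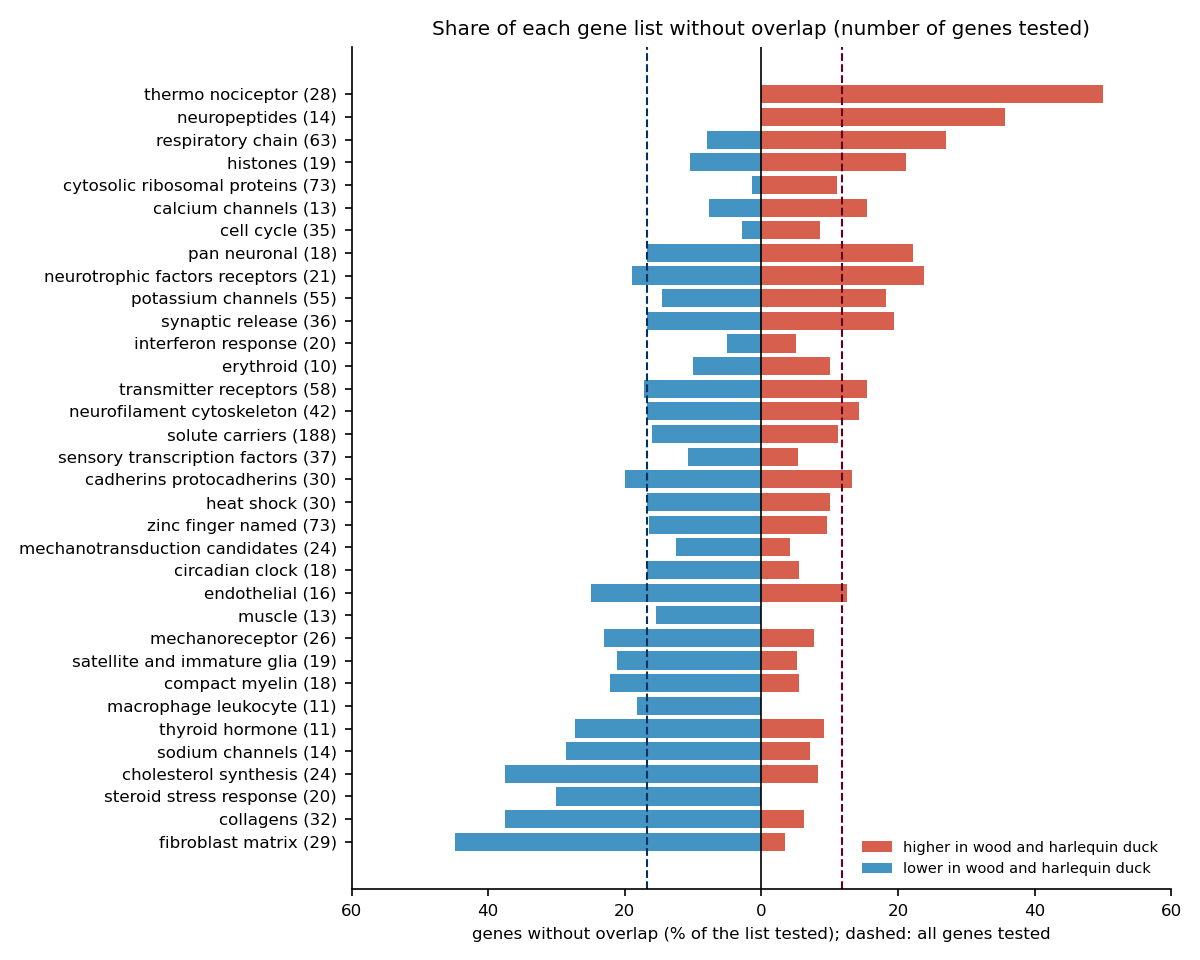
For the 34 lists with at least 10 genes tested, red bars to the right give the share of genes higher in wood and harlequin duck without overlap and blue bars to the left the share lower; the dashed lines mark the shares over all genes, 11.8% and 16.7%. Thermoreceptor and nociceptor genes (50.0% higher) stand at the top and fibroblast and matrix genes (44.8% lower) at the bottom.

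The genes with the widest gaps were taken among named genes in both annotations that were above 0 in all 5 ducks. The cells they came from are not known from whole tissue. The 10 that were higher were *LMOD1*, *PKNOX1*, *GPR35*, *RASEF*, *PDE6H*, *SERPINB6L*, *ISLR2*, *SPON2*, *IL31RA* and *PMP2*, with gaps from 1.57 to 1.09 on the log2 scale. *LMOD1*, a protein of smooth muscle filaments, had 10.4 and 12.6 RPKM against 1.97, 1.80 and 2.82 RPKM (5.22-fold). *PKNOX1*, a homeobox transcription factor, had 24.8 and 26.2 RPKM against 6.98, 6.89 and 8.26 RPKM (3.45-fold). *IL31RA*, a subunit of the receptor for the itch cytokine IL-31, had 68.2 and 55.8 RPKM against 15.3, 25.1 and 19.2 RPKM (3.12-fold), and chicken had 60.2 RPKM. *PMP2*, a fatty acid-binding protein of myelin, was the most abundant of the 10, with 1126 and 1415 RPKM against 418, 495 and 528 RPKM, and ruddy duck had 3793 RPKM.

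*GPR35*, a receptor found on nociceptors in rodents, had 37.2 RPKM (wood duck) and 11.3 RPKM (harlequin duck) against 2.62, 0.647 and 4.17 RPKM. It shows how far the 2 ducks of a side could differ without overlap with the others. By contrast, *ISLR2*, a membrane protein of growing axons, was nearly equal within each side, with 21.7 and 20.5 RPKM against 8.38, 8.61 and 8.69 RPKM.

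The 10 that were lower were *ASPA*, *COL6A6*, *KERA*, *GABRG1*, *RSPH4A*, *AKR1D1*, *KCNS1*, *COLEC12*, *NRGN* and *HOPX*, with gaps from 2.34 to 1.07. *ASPA*, which encodes aspartoacylase, an enzyme of oligodendrocytes and Schwann cells that splits N-acetylaspartate, had 2.16 and 7.35 RPKM against 65.2, 41.2 and 120 RPKM, a 15.8-fold difference of the means, while ruddy duck had 175 RPKM. *KERA*, the proteoglycan keratocan, had 0.554 and 1.05 RPKM against 7.68, 13.9 and 9.82 RPKM. *AKR1D1*, a steroid reductase, had 12.3 and 10.6 RPKM against 87.3, 82.3 and 37.3 RPKM (6.04-fold). *NRGN*, which encodes the calmodulin-binding protein neurogranin, had 15.3 RPKM in both wood and harlequin duck against 37.4, 34.0 and 45.1 RPKM (2.54-fold), and ruddy duck had 16.2 RPKM.

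**Figure D5:**
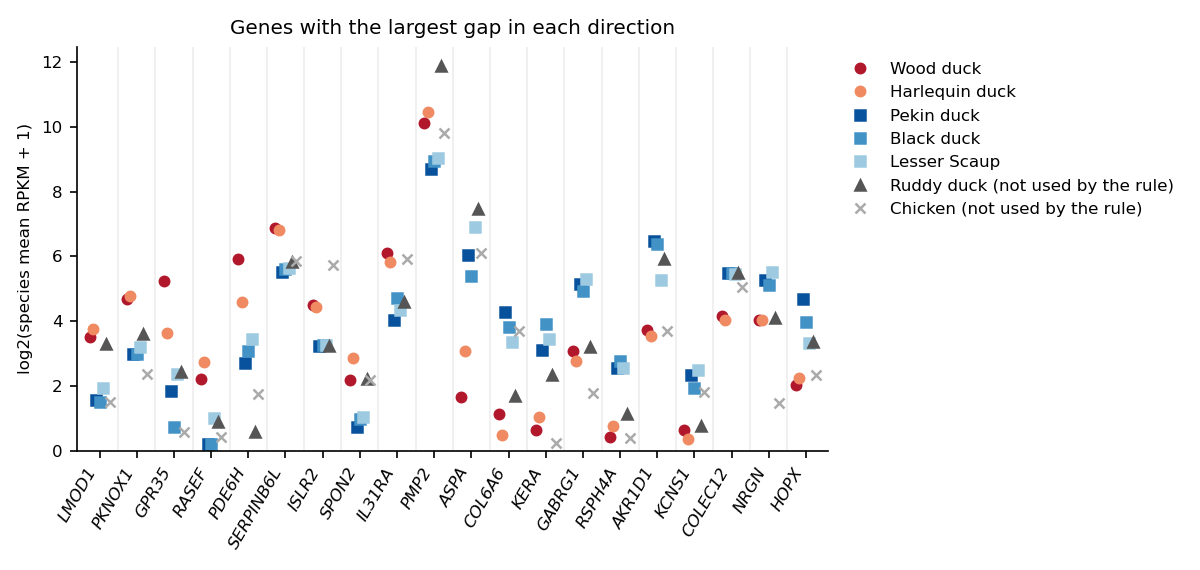
Levels of the 10 higher genes (left) and 10 lower genes (right) with the widest gaps are plotted as log2(RPKM + 1) of the species means, with the symbols defined in the legend. The gaps between circles and squares run from 1.57 (*LMOD1*) to 1.09 (*PMP2*) and from 2.34 (*ASPA*) to 1.07 (*HOPX*), and the gray symbols of ruddy duck and chicken fall on either side, as in *ASPA*, where ruddy duck had 175 RPKM.

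Over all separated genes, the birds that the rule did not use were placed much as they were over genes in general, with the widest difference for ruddy duck at the lower genes. Ruddy duck was nearer to wood and harlequin duck than to the other 3 in 41.1% of the 1446 higher genes and in 74.7% of the 2038 lower genes, compared with 41.6% and 69.3% of all tested genes with a difference in the same direction. For chicken the shares were 35.4% and 58.2%, compared with 36.3% and 59.5%. Levels in ruddy duck and chicken were lower for most genes, with factors of 0.818 and 0.820 relative to the 5 ducks. After scaling by these factors the shares for ruddy duck were 53.6% and 62.1%, against 54.6% and 56.9% of all genes, and those for chicken 45.8% and 47.1%, against 47.6% and 47.3%. Each is 1 mean per species, so no test of these shares is given.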

How the data were processed

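Per the study's methods and the notes of its submitters, reads were trimmed by the authors (Trimmomatic 0.36) and mapped to both a duck genome (BGI_duck_1.0) and a chicken genome (GRCg6a) using STAR 2.5.4b. Gene counts came from featureCounts (Subread 1.6.2) and were turned into RPKM by the authors with edgeR 3.22.3. The deposited table holds these RPKM as species means over 3 birds, with duck and chicken genes joined by symbol, so 1 locus can stand under 2 symbols, and reads of ducks far from the reference may be lost. Sequencing depth per bird was not given in it, and no interval is printed. All sample columns were used (0 left out).

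Values were taken as log2(RPKM + 1), genes averaging under 1 RPKM in the 5 ducks were left out, and a gene had no overlap when every value of one side was above every value of the other. The gap is the distance between the nearest values. Fold differences are ratios of mean RPKM. limma 3.58.1 (R 4.3.3, with trend) was fitted over the 5 species means; other steps used Python 3.11.15. The code was tested on simulated data. The members and the 36 gene lists were chosen with earlier results of these data known. Named genes are *PIEZO2*, the 10 of widest gap per direction (in both annotations, with a named symbol, above 0 in all 5 ducks), and from each list up to 4 of widest gap without overlap and up to 2 of highest level with overlap; the others that are named, including *TRPV2*, *TRPA1*, *NTRK2* and *CHD1W*, were chosen after their values were seen. Some genes are not reported here. Chromosomes were taken by name from RefSeq genes of a newer Pekin duck assembly than the one used by the authors. Alternatives were other scalings (median ratio, quantile, pan-neuronal genes), filters (none, 5 RPKM, both annotations only), a pseudocount of 0.1, minimum gaps, leaving out each duck and adding ruddy duck to the high side.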

Additional observations from a re-analysis of the deposited data

How the results depend on the processing

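No paired analysis was possible because the table holds species means, so that the replicate numbers of the birds are lost. The count of 3484 genes without overlap and the counts per direction stayed within 1.5 times under the 3 scalings and the filters on level and annotation. The genes themselves changed more. Of the 3484, 3150 stayed separated in the same direction under median-ratio scaling, 2948 under quantile normalization and 2136 under division by pan-neuronal genes. Higher genes made up 41.5% of those separated before, and 48.3%, 48.0% and 46.5% after these scalings. The excess of lower genes thus depended in part on the scaling. It was also not shared by both ducks. Higher genes made up 51.1% of those separated without wood duck and 39.4% without harlequin duck. A minimum gap of 0.5 left 236 genes (116 higher, 120 lower) and one of 1 left 39 (20 and 19), and with ruddy duck on the high side 1549 (930 and 619) were left. Leaving out 1 duck, which removes a condition from the rule, gave 4229 to 8200 genes (1793 to 4084 higher, 2436 to 4971 lower). By limma, 0 genes were called without a filter, with genes of both annotations alone or with ruddy duck added, where 1762, 1023 and 473 genes had an unadjusted p under 0.05, and 0 to 6 when 1 duck was left out (0 without Pekin duck, black duck or scaup, with 632, 665 and 1376 at an unadjusted p under 0.05).

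List counts were recomputed under these alternatives, a choice made after seeing the data. With ruddy duck on the high side, 930 of all 12204 genes were higher and 619 were lower. In that setting 10 of 28 thermoreceptor and nociceptor genes, 2 of 14 neuropeptide genes and 8 of 63 respiratory chain genes were higher. Of the other lists, 4 of 26 mechanoreceptor, 6 of 29 fibroblast, 3 of 32 collagen and 2 of 24 cholesterol synthesis genes were lower. Division by pan-neuronal genes left 11 of 63 respiratory chain genes higher, compared with 1290 of all genes. Leaving out 1 duck loosens the rule, and 1793 to 4084 of all genes were then higher and 2436 to 4971 lower. In these runs 14 to 22 thermoreceptor and nociceptor, 5 to 10 neuropeptide and 18 to 47 respiratory chain genes were higher. The lower ones were 6 to 17 mechanoreceptor, 14 to 25 fibroblast, 13 to 22 collagen and 9 to 20 cholesterol synthesis genes. With genes of both annotations alone, ruddy duck was nearer to the low side in 71.6% of lower genes and chicken in 32.4% of higher genes. After median-ratio scaling the shares were 53.6% and 62.1% (ruddy duck) and 45.8% and 47.1% (chicken) of higher and lower genes. Of the 206 differences of genes that the naming rule took, 80 moved by more than the SD between species without wood duck, 80 without harlequin duck, 38 with a pseudocount of 0.1 and 3 under median-ratio scaling. The spread between birds and the depth of each bird are not known from the table and limit every value.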

Other observations

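Other gene groups were counted in the same way and are given without a test. Genes of steroid and stress responses, a list that includes immediate early genes, were lower in 6 of 20 cases (30.0%, against 16.7% of all genes) and higher in none. *NR4A1*, a nuclear receptor induced by activity, had 1.11 and 1.50 RPKM in wood and harlequin duck against 2.54 to 2.70 RPKM. *ATF3*, a marker of injured neurons in mammals, had 1.80 and 1.95 RPKM against 2.57 to 3.36 RPKM. *FKBP5* was lower as well, with 13.1 and 10.3 RPKM against 14.2 to 18.2 RPKM, whereas *FOS*, *JUN* and *EGR1* overlapped. Heat shock genes were lower in 5 and higher in 3 of 30 cases, with *HSP90AA1*, a chaperone, at 1635 and 1592 RPKM against 1230 to 1387 RPKM. Of 11 genes of thyroid hormone action, 3 were lower and 1 was higher. *DIO2*, which activates thyroid hormone, had 101 and 95.7 RPKM against 122 to 141 RPKM, and *CRYM*, which binds the hormone, had 19.0 and 60.9 RPKM against 16.6 to 17.6 RPKM. Of 18 clock genes 3 were lower, among them *CLOCK* with 13.7 and 15.3 RPKM against 18.8 to 20.8 RPKM, and 1 was higher.

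Genes of transmitter release were higher in 7 and lower in 6 of 36 cases. *SNAP25*, a protein of vesicle fusion, had 305 and 309 RPKM against 235 to 245 RPKM, whereas *SYT2*, a fast calcium sensor of release, had 52.2 and 35.3 RPKM against 72.0 to 90.5 RPKM. Cytoskeletal genes of axons were higher in 6 and lower in 7 of 42 cases, and *PRPH*, which encodes the filament peripherin, was lower with 16.8 and 13.8 RPKM against 26.3 to 30.2 RPKM. Of 7 carbonic anhydrases, *CA2* was higher with 24.1 and 25.1 RPKM against 11.4 to 15.9 RPKM, 1 other was higher, and 2 were lower, including *CA7* with 7.32 and 8.23 RPKM against 13.6 to 20.1 RPKM.

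Cytosolic ribosomal protein genes were higher in 8 and lower in 1 of 73 cases, and their summed level was lowest in wood duck (15753 RPKM) and highest in harlequin duck (24379 RPKM) among the 5 ducks. Cell cycle genes were higher in 3 and lower in 1 of 35 cases, histones in 4 and 2 of 19, interferon response genes in 1 and 1 of 20, and erythroid genes in 1 and 1 of 10. Of 11 macrophage and leukocyte genes 2 were lower and none was higher. Cadherins and protocadherins were higher in 4 and lower in 6 of 30 cases, solute carriers in 21 and 30 of 188, zinc finger genes in 7 and 12 of 73, and of 2 HOX genes tested 1 was higher.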
